A study of Mus musculus with 12 samples.

Results

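The genes described here are 10 genes of the extraembryonic ectoderm and trophoblast: Elf5, Elf3, Ets2, Sox21 and Tead4, which encode transcription factors, Wnt7b and Bmp8b, which encode signalling ligands, and Plac1, Plet1 and Tpbpa, which encode surface, secreted or placental proteins. They were listed by name among 21631 protein-coding genes and not picked by a measured value, but earlier results of these data were known at the time. The samples were cells of C57BL/6 mouse embryos, profiled with CoBATCH, in which an antibody guides the Tn5 transposase to chromatin that carries a histone mark. The stages, with the embryonic days of the labels, were Pre_PS (before the primitive streak, E6.0), ES (early streak, E6.0 and E6.5), MS (mid streak, E6.0 and E7.0), LS (late streak, E7.0 and E7.25), OB (no allantoic bud, E7.25 and E7.5) and EHF (early headfold, E7.5). H3K27ac, found at active promoters and enhancers, and H3K4me1, found at enhancers and beside promoters, each had 1 peak list per stage, 12 lists in all. All embryos were of the same strain with no genetic change or treatment named. How many embryos or cells went into a library is not given in the sources used here.

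Trophoblast descends from the outer layer of the blastocyst. In the gastrulating embryo its stem cells sit in the extraembryonic ectoderm, next to the epiblast, and their progeny form the ectoplacental cone, the chorion and later the placenta. Elf5, Ets2 and Tead4 are part of the transcription network that sets up or maintains trophoblast, while Bmp8b from the extraembryonic ectoderm acts on the neighbouring epiblast. Several of the 10 genes also act in tissues of the embryo itself, so marks at them are not specific to trophoblast.

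The labels' protocols say that tissue outside the embryo proper was dissected away at Pre_PS, ES, MS and LS, called the dissected stages below, and state nothing on this for OB and EHF. The comparison of interest is therefore between these 4 and these 2 stages. With 1 library per stage and mark there was no replicate, and stages are not replicates of one another, so no test was made and every difference below is a description. Dissection and developmental stage cannot be told apart in this design. In libraries made from many cells, fewer cells of a type and less of a mark per cell cannot be told apart either.

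The H3K27ac lists held 13398 to 39635 peaks over 14.3 to 42.1 Mb, and the H3K4me1 lists 35646 to 47849 peaks over 23.4 to 51.3 Mb. Both Pre_PS lists were the smallest in covered bases of their mark, and their background was the lowest (0.0499 fragments at the weakest H3K27ac peaks against 0.211 to 0.330 later, and 0.0144 against 0.164 to 0.347 for H3K4me1). At Pre_PS 67.3% of H3K4me1 peaks rested on the lowest possible pileup of 1 fragment. Of the 43 H3K4me1 peaks near the 10 genes at Pre_PS, 30 (69.8%) were of this kind. A value of 0 at Pre_PS is thus a value of a shallow library.

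Sequences at the annotated starts show how unlike one another these genes are. The reference table held start windows (250 bases before to 50 after the start, RefSeq, GRCm38.p6, the assembly called mm10) for 8 of the 10 genes, with none for Wnt7b and Tead4, and 2 windows each for Elf5 and Plac1. Shown here are the 250 bases before the start, 5′ to 3′ along the gene, with each CG pair in capitals, for genes whose window carried both marks at all 6 stages (Ets2), at the 5 later stages (Sox21), at 3 stages (Elf3 and the outer start of Elf5) and at none (Plet1, Tpbpa).
Ets2 (chr16:95702157-95702406, plus strand): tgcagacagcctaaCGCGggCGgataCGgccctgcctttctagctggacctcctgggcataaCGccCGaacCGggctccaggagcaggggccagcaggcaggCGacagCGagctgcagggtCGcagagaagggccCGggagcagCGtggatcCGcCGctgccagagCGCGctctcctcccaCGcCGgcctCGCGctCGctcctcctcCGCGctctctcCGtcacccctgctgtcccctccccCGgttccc
Sox21 (chr14:118237031-118237280, minus strand): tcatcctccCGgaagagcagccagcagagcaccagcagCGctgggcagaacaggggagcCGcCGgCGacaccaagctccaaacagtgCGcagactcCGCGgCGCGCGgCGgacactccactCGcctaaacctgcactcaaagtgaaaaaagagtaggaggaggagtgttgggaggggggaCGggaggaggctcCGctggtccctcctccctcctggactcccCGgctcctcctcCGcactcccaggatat
Elf3 (chr1:135258473-135258722, minus strand): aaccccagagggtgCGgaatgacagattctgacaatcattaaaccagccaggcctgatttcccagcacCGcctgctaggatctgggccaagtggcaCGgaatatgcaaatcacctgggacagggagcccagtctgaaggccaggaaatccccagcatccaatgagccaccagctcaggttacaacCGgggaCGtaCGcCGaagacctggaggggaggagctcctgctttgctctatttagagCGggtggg
Elf5 (chr2:103411848-103412097, plus strand): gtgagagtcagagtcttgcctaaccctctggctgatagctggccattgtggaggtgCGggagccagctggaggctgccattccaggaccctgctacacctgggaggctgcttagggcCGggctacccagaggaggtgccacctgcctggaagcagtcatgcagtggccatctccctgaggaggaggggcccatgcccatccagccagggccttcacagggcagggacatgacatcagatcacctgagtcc
Plet1 (chr9:50494275-50494524, plus strand): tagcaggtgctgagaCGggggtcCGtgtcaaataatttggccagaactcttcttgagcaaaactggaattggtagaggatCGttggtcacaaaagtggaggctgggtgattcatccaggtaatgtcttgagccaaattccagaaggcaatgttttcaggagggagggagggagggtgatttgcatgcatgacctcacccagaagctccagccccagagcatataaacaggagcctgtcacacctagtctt
Tpbpa (chr13:60941937-60942186, minus strand): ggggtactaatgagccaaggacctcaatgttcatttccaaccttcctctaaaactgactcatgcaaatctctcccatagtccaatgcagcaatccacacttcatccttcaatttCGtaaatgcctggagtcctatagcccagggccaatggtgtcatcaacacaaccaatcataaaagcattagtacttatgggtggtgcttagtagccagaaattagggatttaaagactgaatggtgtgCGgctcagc

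The 250 bases of Ets2 held 25 CG pairs and had a GC content of 71.6%. Those of Sox21 and Bmp8b held 17 each. Elf3 had 8, and the outer start of Elf5 had 2 although its GC content was 62.8%. Plet1 had 3, Tpbpa 2, and the Plac1 starts 2 and 4. Over all 21045 windows the median was 10 CG pairs. It was 17 in the 13186 windows under an H3K27ac peak at 1 stage or more, and 2 in the other 7859. Ets2, Sox21 and Bmp8b lay at or above the median of marked windows, whereas the outer Elf5 window was marked at 3 stages with a CG count equal to the median of unmarked ones.

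Short motifs were searched on both strands of the same 250 bases, without regard to overlap with other motifs. The TEAD core GGAATG occurred at Elf3 and at the outer Elf5 start (11.6% of all windows hold it), the ETS motif CCGGAAG at Sox21 (9.08%), the AP-2 motif GCCNNNGGC at Sox21 and Tpbpa (16.5%), the GATA motif AGATAA at the outer Plac1 start (8.84%) and the TATA box TATAAA at Plet1 (11.7%). These are matches of letters and not measured binding.

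At their starts the genes fell into a marked and an unmarked set. Of the 8 genes with a window, 5 had one under an H3K27ac peak at 1 stage or more, beside 64.5% of all 17274 genes with a window, and the same 5 had H3K4me1 there (66.2% of all genes). Ets2 and Bmp8b were covered over all 300 bases by both marks at every stage. Sox21 had 85 bases of H3K27ac at Pre_PS and all 300 from ES on, with H3K4me1 over 300 bases from ES on and none at Pre_PS. Elf3 had 300 bases of H3K27ac at ES, LS, OB and EHF and none at Pre_PS and MS. Its H3K4me1 covered 175 to 300 bases from Pre_PS to OB and none at EHF, so that both marks were present at ES, LS and OB. At the outer Elf5 start both marks were present at ES, LS and OB and absent at Pre_PS, MS and EHF. The windows of Plac1, Plet1 and Tpbpa lay under no peak of either mark at any stage, dissected or not. No window was marked only at OB and EHF.

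**Figure D1:**
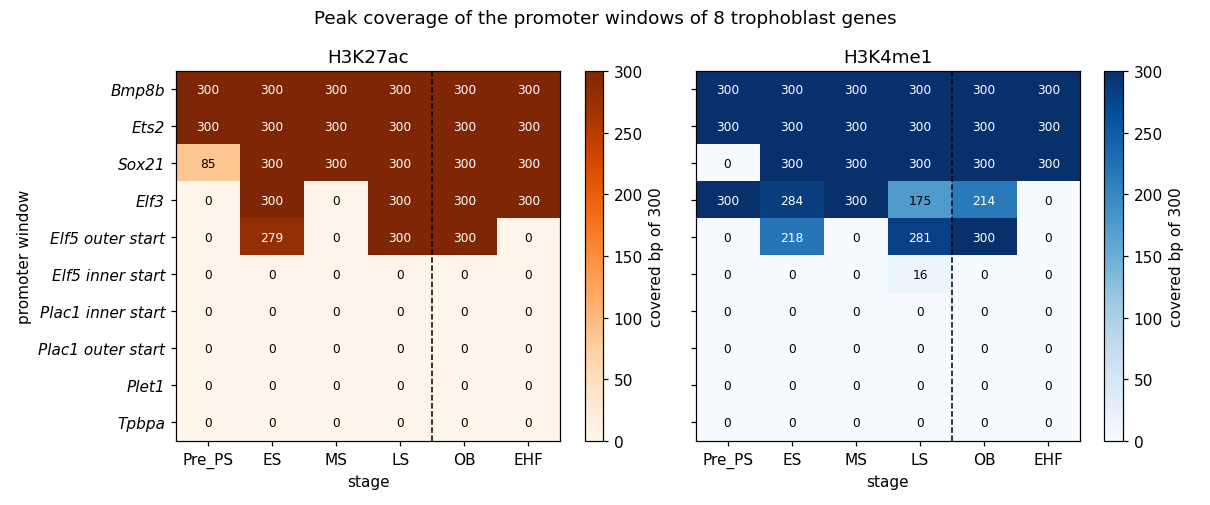
Covered bases (of 300) of each annotated start window by stage, for H3K27ac and H3K4me1, with 1 library per cell of the grid. Ets2 and Bmp8b stay fully covered, Elf5 (outer start) is marked at ES, LS and OB, and Plac1, Plet1 and Tpbpa hold 0 throughout.

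By stage, 3, 5, 3, 5, 5 and 4 of the 8 genes had H3K27ac in a start window from Pre_PS to EHF, against 39.0, 61.9, 60.6, 62.5, 61.2 and 61.8% of all genes. For H3K4me1 the counts were 3, 5, 4, 5, 5 and 3, against 37.4, 63.0, 62.4, 63.6, 63.5 and 61.9%. At all 6 stages 3 genes had H3K27ac there (38.7% of all genes) and 2 had H3K4me1 (36.3%). The counts at OB and EHF lay within the range of the dissected stages for both marks.

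Beyond the start, each gene was given a territory: every base that lay at most 100 kb from its outer ends and for which those were the closest protein-coding gene ends. A territory says where a peak lies and nothing of which gene it acts on. The 10 territories ran from 33.5 kb (Tpbpa, between Ctla2a and Ctsj) to 196 kb (Plac1, between Hprt and Fam122b). Coverage is given below as the share of a gene, which is the bp under peaks in its territory for each Mb under peaks in that whole library, in the order Pre_PS, ES, MS, LS, OB, EHF. The Pre_PS denominators were small, so that a few covered bases weigh more there.

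Elf5 encodes an ETS-family factor that maintains trophoblast stem cells (chr2:103412098-103450989, territory of 94.8 kb between Ehf and Cat). Its H3K27ac shares were 0, 10.1, 0, 9.63, 12.2 and 0 bp per Mb, all from the single region chr2:103411708-103412204 over the outer start. Its H3K4me1 shares were 15.0, 6.78, 8.02, 14.9, 8.26 and 0 bp per Mb. A peak of at least 1 mark was thus present at every stage but EHF, a stage for which no removal of extraembryonic tissue is stated. At Pre_PS and MS this was only 1 H3K4me1 peak, inside the gene and with the lowest fold of its list (1.97 and 2.58). At no stage did either mark cover more than 0.806% of the territory. The start peaks were ranked by the authors' fold, the ratio of fragments to local background, each with 1 added, averaged over a peak. At ES, LS and OB, 19.6, 34.6 and 31.9% of H3K27ac peaks had a lower fold, and 20.9, 28.9 and 56.1% of H3K4me1 peaks.

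Elf3 encodes an ETS-family factor of epithelia (chr1:135253574-135258472, 49.96 kb between Gpr37l1 and Rnpep). Its H3K27ac shares were 0, 102, 71.1, 102, 128 and 128 bp per Mb, so that OB and EHF lay above the 4 dissected stages (mean 128 against 68.6, a difference of 59.5). In covered bp OB and EHF also lay above the dissected stages: 0, 4210, 2554, 4282, 4675 and 4620. The region chr1:135255051-135258832, over the start and most of the gene, held most of these bases, with 0, 3296, 1770, 3432, 3782 and 3481 bp. By fold its strongest peak exceeded 38.1, 26.2, 52.9, 47.9 and 43.6% of peaks from ES to EHF. The H3K4me1 shares of Elf3 were 118, 105, 97.3, 107, 101 and 79.9 bp per Mb, with EHF below every other stage. The mean difference was 59.5 bp per Mb for H3K27ac and -16.5 for H3K4me1. Without Pre_PS the H3K27ac difference was 36.6, and the H3K4me1 difference was -6.18 without EHF and -26.9 without OB. When only the stronger 50% of peaks of each list by deposited −log10 q-value were used, the H3K27ac difference became -29.7 bp per Mb. With equal peak numbers from each list no H3K27ac was left at Elf3.

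Ets2, an ETS-family gene needed in extraembryonic ectoderm and used in many other tissues (chr16:95702407-95721049, 177 kb next to Erg), had H3K27ac shares of 59.8, 57.2, 70.6, 56.2, 50.5 and 68.1 bp per Mb. OB was the lowest of the 6 and EHF the second highest, so the sets of stages overlapped. The start region chr16:95701436-95703282 carried H3K27ac at all 6 stages over 852 to 1708 bp. From ES on its fold exceeded that of 97.4 to 99.8% of peaks in the same list, and at Pre_PS that of 21.9%. H3K4me1 shares were 132, 41.9, 49.3, 64.7, 57.6 and 51.1 bp per Mb. The high value at Pre_PS included 4 regions whose peak there had the lowest fold of its list.

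Sox21, which encodes a SoxB-type factor of extraembryonic ectoderm and neural tissue (chr14:118233233-118237030, 53.4 kb between Gpr180 and Gm9376), had H3K27ac shares of 171, 94.9, 95.8, 90.8, 106 and 105 bp per Mb. Among the 5 better covered stages OB and EHF were the highest, and Pre_PS lay above all. The region chr14:118234267-118237563 over the gene was present at all 6 stages with 2444 to 3255 bp, and its fold exceeded that of 72.1 to 91.2% of peaks from ES on. H3K4me1 shares were 63.9, 83.6, 99.2, 99.1, 86.7 and 133 bp per Mb, highest at EHF, with OB inside the range of the dissected stages.

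Tead4 encodes the DNA-binding partner of YAP that specifies the outer layer of the blastocyst (chr6:128227143-128300813, 126 kb between Tspan9 and Tulp3). Its H3K27ac shares were 34.7, 122, 84.6, 113, 113 and 138 bp per Mb. EHF was the highest, while OB lay below ES. H3K4me1 shares were 268, 124, 127, 139, 132 and 112 bp per Mb, lowest at EHF. The region chr6:128299637-128301244 over one end of the gene had H3K27ac at all 6 stages and a fold above that of 91.9 to 98.0% of peaks from ES on. A region of similar rank, chr6:128200091-128201144, lay 26.0 kb outside the other end and had H3K27ac at the 5 later stages over 905 to 1049 bp, with a fold above that of 95.4 to 98.0% of peaks. These 2 regions thus ranked high in the lists of ES, MS and LS and in those of OB and EHF.

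Of the ligand genes, Wnt7b, whose product is needed in the chorion and in several embryonic organs, held far more coverage than any other of the 10 (chr15:85535437-85581821, 139 kb between 7530416G11Rik and Ppara). Its H3K27ac shares were 386, 468, 560.4, 526, 544 and 470.0 bp per Mb, with OB and EHF inside the range of the dissected stages. Its H3K4me1 shares were 492, 554, 553, 583, 631 and 679 bp per Mb, and OB and EHF lay above all others (mean 655 against 546, a difference of 110). In covered bp, the H3K4me1 values were 11522, 27382, 24453, 29945, 32176 and 26542, and EHF lay below ES and LS. The order of EHF in share therefore rests on the division by the covered bases of the library, which were 39.1 Mb at EHF against 49.4 Mb at ES. With the weakest peaks of each list left out, the difference was 64.2, with the stronger 50% of peaks it was 84.6, and in both the sets of stages overlapped. The 50% cut of the Pre_PS list ran through tied weakest peaks, kept in order of chromosome name and position, so the 84.6 depends in part on that order. The territory held 22 H3K27ac regions, 6 of them at all 6 stages, and 24 H3K4me1 regions. The largest by covered bases over the 6 stages were chr15:85575757-85578531 for H3K27ac, inside the gene, and chr15:85534057-85540668 for H3K4me1, over one end, with 820, 3884, 4743, 5317, 6555 and 6419 bp.

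Bmp8b, a BMP ligand gene of the extraembryonic ectoderm (chr4:123104308-123126094, 35.2 kb between Trit1 and Ppie, with Oxct2b between its parts), had H3K27ac shares of 48.0, 79.9, 54.0, 72.6, 88.0 and 45.9 bp per Mb. OB was the highest and EHF the lowest. The region chr4:123104405-123105914 over the start was present at all 6 stages. The swing came from chr4:123080846-123082721, 22.4 kb before the annotated start, with 0, 1841, 437, 1714, 1828 and 384 bp. H3K4me1 shares were 118, 42.2, 71.9, 79.0, 67.1 and 80.9 bp per Mb, with both later stages inside the range of the dissected ones.

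**Figure D2:**
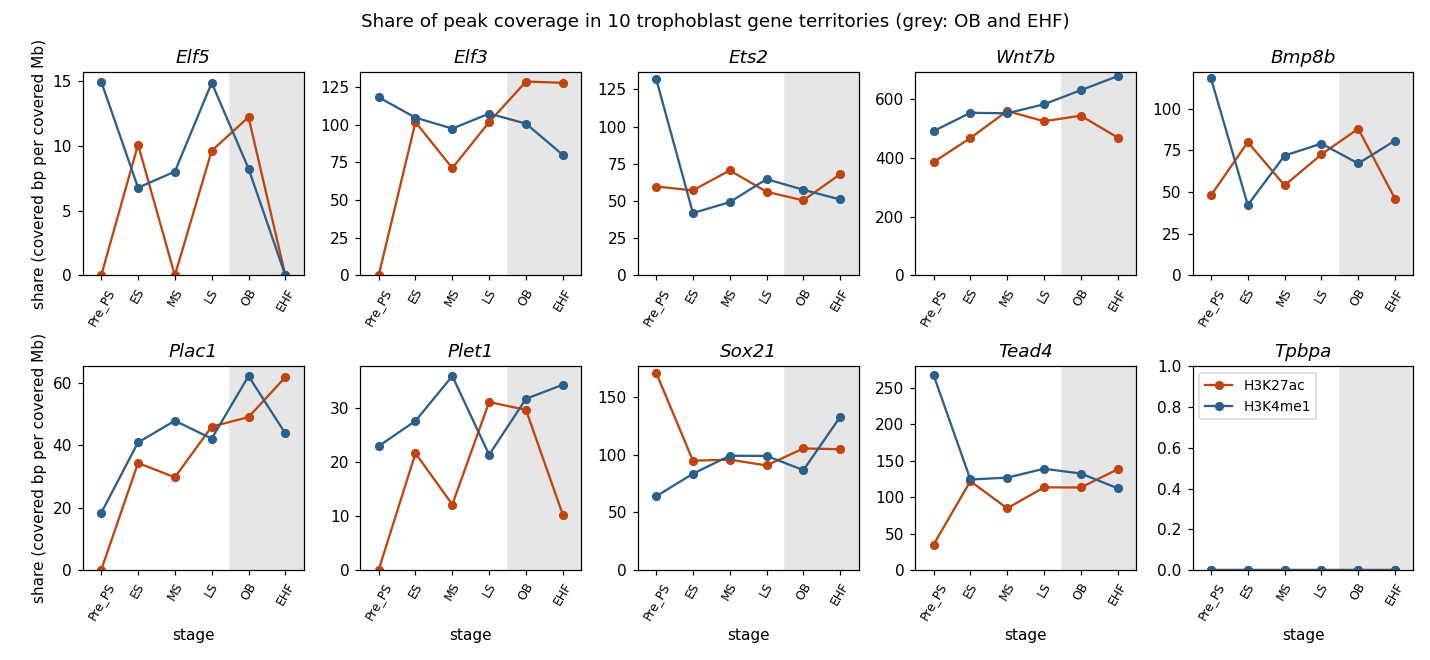
Share of each of the 10 genes (bp under peaks in the territory for each covered Mb) at the 6 stages for H3K27ac and H3K4me1, with 1 library per point and a scale of its own for each gene. Elf3 and Plac1 are highest at OB and EHF for H3K27ac, Wnt7b for H3K4me1, and Tpbpa is at 0 in all 12 lists.

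Plac1, an X-linked gene expressed mainly in placental trophoblast (chrX:53069993-53240110), had H3K27ac shares of 0, 34.3, 29.7, 46.0, 49.1 and 61.9 bp per Mb. OB and EHF lay above the dissected stages (mean 55.5 against 27.5, a difference of 28.0), but in covered bp OB (1786) lay below LS (1939). None of these bases was near either start. The largest region, chrX:53056604-53057751, lay 56.7 kb past the inner start, outside the gene on the side of Hprt, with 0, 957, 1068, 1106, 995 and 1088 bp. The region chrX:53210964-53211511, inside the gene and 28.6 kb from the outer start, was the nearest to a start and was present at ES, OB and EHF. H3K4me1 shares were 18.3, 40.9, 47.9, 42.2, 62.2 and 43.8 bp per Mb, with EHF inside the range of the dissected stages. Counted over the gene body and 5 kb on either side, with the stronger 50% of peaks or with equal peak numbers, Plac1 no longer had both later stages above the others.

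Plet1, which encodes a surface protein of trophoblast progenitors (chr9:50494525-50505639, 119 kb up to Pts), had H3K27ac shares of 0, 21.7, 12.1, 31.2, 29.7 and 10.3 bp per Mb, with EHF below ES, MS and LS. Its H3K27ac regions lay 31.4 to 81.8 kb before the start. The one at all 5 later stages was chr9:50437949-50438575, 56.0 kb before the start, with 539, 436, 627, 443 and 372 bp from ES to EHF. H3K4me1 shares were 23.0, 27.7, 36.0, 21.4, 31.8 and 34.4 bp per Mb, and MS was the highest.

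Tpbpa, a gene of the ectoplacental cone and spongiotrophoblast (chr13:60938492-60941936), had no peak of either mark in its territory at any stage. The nearest covered bases to its start lay 55.4 kb away for H3K27ac and 38.8 kb away for H3K4me1, both nearer to other genes. Tpbpa lies in a cluster of related genes. How the authors treated reads that map to several places is not given in the sources used here. A value of 0 cannot be read as absence of the marks.

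**Figure D3:**
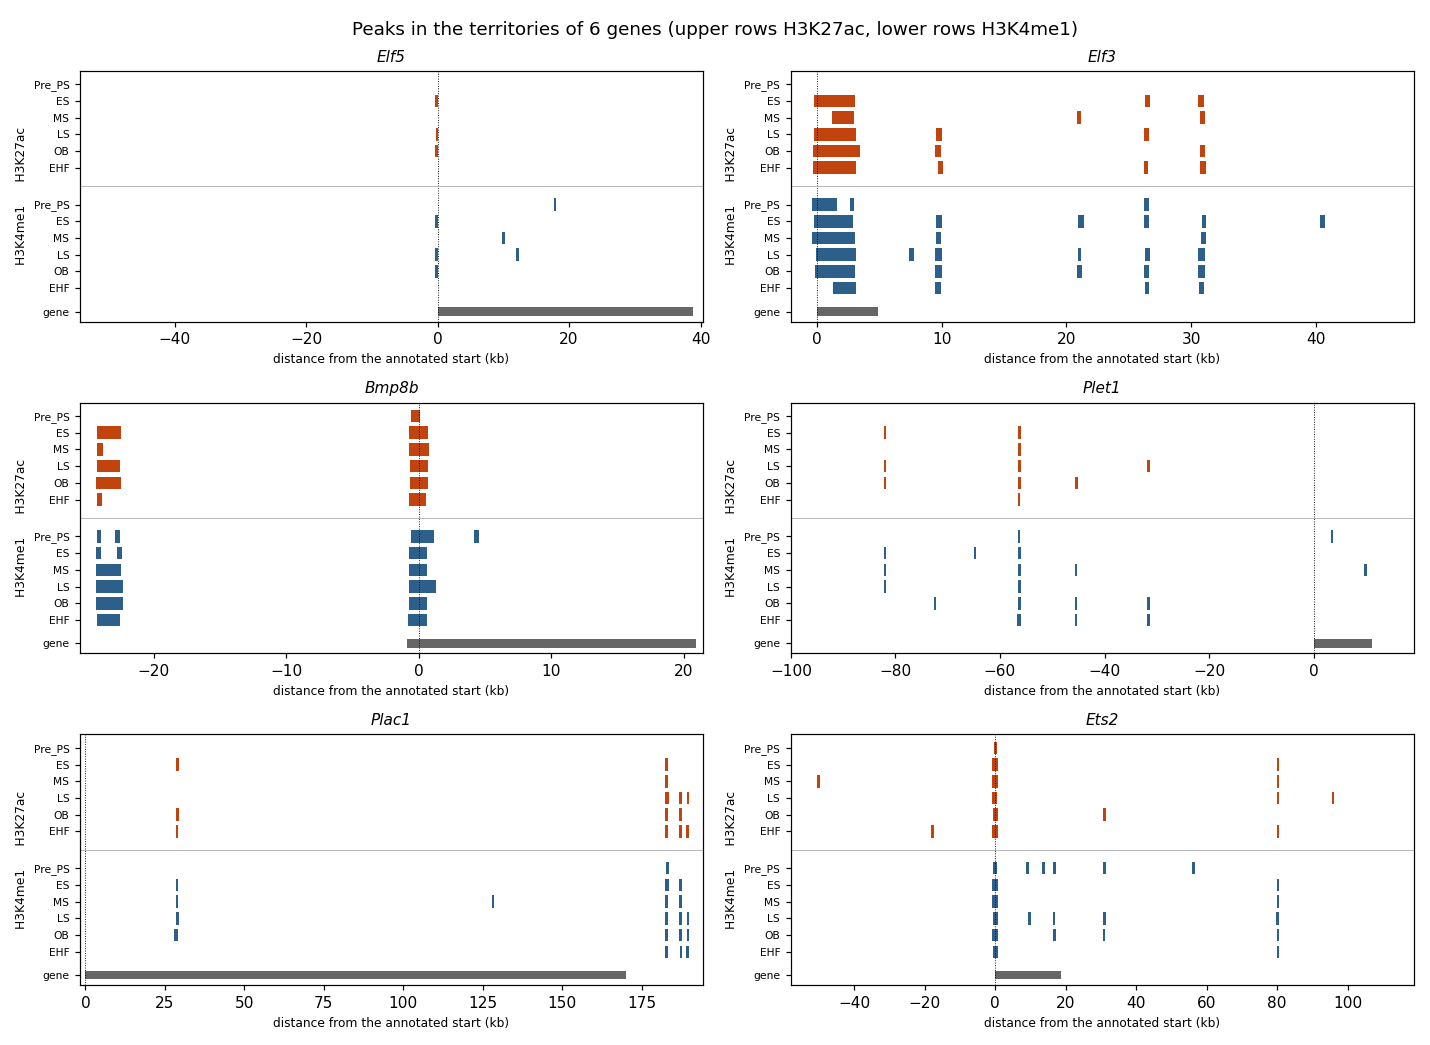
Peaks of both marks in the territories of selected genes at the 6 stages, plotted by distance from an annotated start or gene end in kb. The peaks of Plac1 and Plet1 lie away from the starts, while the H3K27ac peaks of Elf5 sit on the outer start at ES, LS and OB. H3K4me1 peaks of Elf5 lie there at the same stages and also inside the gene at Pre_PS, MS and LS.

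Set side by side, OB and EHF were both above all 4 dissected stages for 2 of the 10 genes in H3K27ac (Elf3 and Plac1), where 7.35% of the 17449 genes with coverage were, and both below for 0, where 2.8% were. For H3K4me1 the counts were 1 (Wnt7b), with 5.17% of 18406 genes, and 0, with 3.24%. No gene of the 10 was called in both marks. Among the 9 genes with coverage, the median difference was 3.76 bp per Mb for H3K27ac and -3.85 for H3K4me1, beside -0.55 and 0.13 over all genes. With counts this small, 1 gene more or less changes the share, and the values give no uniform direction for the 10 genes. In covered bp without the division, a setting chosen after seeing the data, Elf3 alone was called for H3K27ac (4.20% of genes) and none for H3K4me1 (3.47%).

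The summed share of the 10 genes was 700.2, 990, 978, 1047, 1121 and 1027 bp per Mb for H3K27ac, a mean difference of 145 in which EHF lay below LS. Without Pre_PS the difference was 68.9, and with the stronger 50% of peaks it was -57.5. For H3K4me1 the sum was 1248, 1026, 1089, 1151, 1178 and 1214 bp per Mb, a difference of 67.6 with both later stages below Pre_PS. Wnt7b made up 45.8 to 57.3% of the H3K27ac sum and 39.4 to 55.9% of the H3K4me1 sum. The other 9 genes summed to 314, 522, 418, 521, 577 and 557 for H3K27ac and to 757, 472, 536, 567, 547 and 535 for H3K4me1, so that OB and EHF were the highest in the former and inside the range in the latter.

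With overlapping peaks of all stages merged for each mark, the territories held 58 H3K27ac regions. None was present at both OB and EHF and absent from all 4 dissected stages (0.736% of all 51619 regions were), and none showed the opposite (0.0775%). At all 6 stages 10 were present (17.2%, beside 21.5% of all regions), a further 14 lacked only Pre_PS, and 11 were seen at 1 stage (18.97%, beside 25.5%). Of the 81 H3K4me1 regions, 20 were present at all 6 stages (24.7%, beside 20.7%), 25 at 1 stage (30.9%, beside 36.4%), 2 only at OB and EHF (0.356% of all 77300) and 0 only at the dissected stages (0.188%). Of the 2, chr15:85560888-85561390 lay inside Wnt7b and had a fold above 55.7% of peaks at OB and 12.5% at EHF. The other, chr9:50462743-50463078, lay 31.4 kb before Plet1 with a fold above 10.2 and 16.3% of peaks, and H3K27ac was present there at LS.

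By place, 8 of the 58 H3K27ac regions lay over a start or gene end, 16 inside a gene and 34 outside. At every stage from ES on, the fold exceeded that of at least 91.9% of peaks at the start or gene end regions of Ets2 and Tead4 and at regions outside the genes at Tead4 (given above) and Wnt7b (chr15:85634185-85635322). At Elf3 and Elf5 the start peaks ranked below those of Ets2, Tead4, Sox21 and Bmp8b in every list from ES on that held them.

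**Figure D4:**
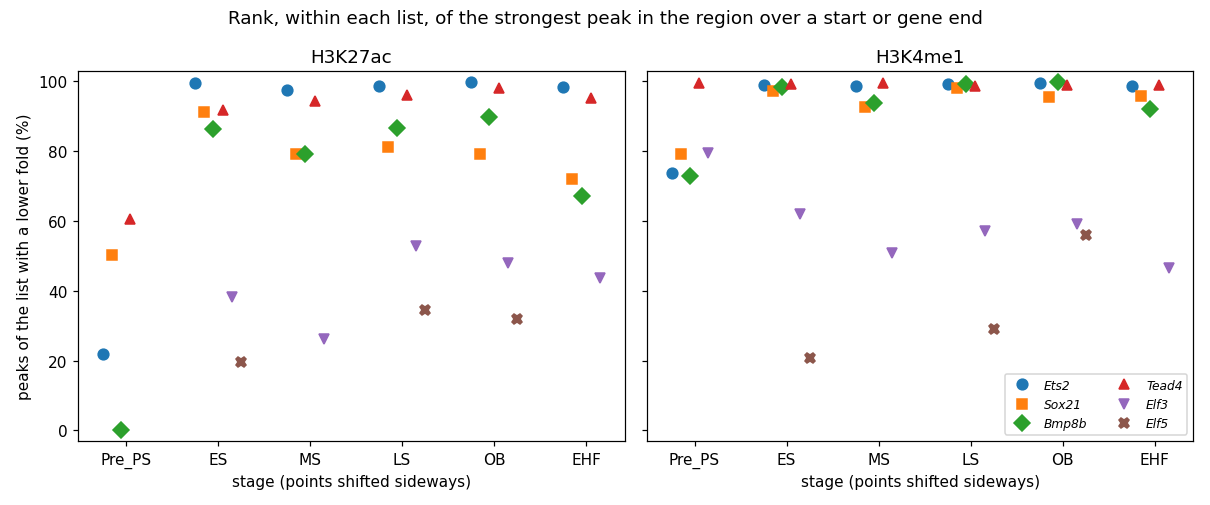
Percent of peaks of the same list with a lower authors' fold than the strongest peak of the region over the start or gene end, for 6 genes, by stage and mark, with 1 library per point. From ES on, Ets2 and Tead4 stay at or above 91.9% for both marks, while Elf5 has peaks at ES, LS and OB only and lies at 34.6% or below for H3K27ac.

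The other genes of the same tissue were taken from a list of 26, many of which also act in the embryo. For H3K27ac 3 of 26 had OB and EHF above all dissected stages and 0 below, beside 7.35 and 2.8% of all genes with coverage. The 3 were Hand1, a factor of giant cells and mesoderm (33.9, 182, 211, 199, 228 and 231 bp per Mb), Gata3, a trophoblast and surface ectoderm factor (28.0, 177, 193.6, 172, 194.0 and 201), and Esrrb, a nuclear receptor of stem cells (122, 125, 99.1, 118, 146 and 136). For Gata3 OB lay only just above MS. For H3K4me1 5 were above and 1 below, beside 5.17 and 3.24% of all genes with coverage. The largest differences above were at Furin, a protease that activates growth factors (57.5), Bmp4 (57.1), Gata2 (39.96) and Krt8 (34.9). The fifth above was Cdx2 (32.0) and the 1 below was Cited1 (-22.1), both named after their values were seen. The summed share of the list was 3356, 3495, 3367, 3434, 3659 and 3805 bp per Mb for H3K27ac and 3042, 3421, 3542, 3488, 3648 and 3941 for H3K4me1, with OB and EHF the highest in both. The start windows of 3 of its 20 genes with one, Gcm1, Prl3d1 and Ctsq, lay under no peak of either mark at any stage. Of all 21045 windows, counted singly and not by gene, 7354 did the same.

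Lists for other cells that the dissection or later stages could include were counted in the same way. For H3K27ac, genes with both later stages above the dissected ones numbered 2 of 16 for visceral endoderm, 1 of 10 for parietal endoderm, 1 of 12 for extraembryonic mesoderm and amnion, 2 of 12 for epiblast, 0 of 10 for nascent mesoderm and 0 of 15 for an adult tissue reference, and 0 were below in each. For H3K4me1 the counts above were 1, 0, 0, 1, 1 and 0, and below 0, 0, 1, 1, 0 and 1. Of all genes with coverage, 7.35% were above and 2.8% below for H3K27ac, and 5.17 and 3.24% for H3K4me1. The summed H3K27ac share of visceral endoderm ran from 899.9 to 1253 bp per Mb at the dissected stages and from 975 to 1067 at OB and EHF, and that of H3K4me1 from 909.7 to 1105 and from 929 to 993. For extraembryonic mesoderm and amnion it ran from 1384 to 1794 and from 1715 to 1827 for H3K27ac, and from 1390 to 1994 and from 1950 to 2313 for H3K4me1. For parietal endoderm these ranges were 558 to 865 and 855 to 866, and 613 to 940 and 768 to 858. Some genes with start windows had none under a peak of either mark at any stage. They were Afp, Cubn and Cer1 (3 of 11, visceral endoderm), Srgn (1 of 6, parietal endoderm) and Postn and Tdo2 (2 of 8, extraembryonic mesoderm and amnion). Nanog (1 of 8, epiblast) and 8 of 10 adult tissue genes did the same. Genes were named here after their values were seen. Of all 21045 windows, counted singly and not by gene, 7354 lay under no peak. Of the epiblast starts, 6 of 8 had H3K27ac at each of the 5 later stages, beside 60.6 to 62.5% of all genes with a window. Of the adult tissue starts 2 of 10 had it at any stage, beside 64.5%. The part of any of these cells in the values of the 10 genes was not tested.

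**Figure D5:**
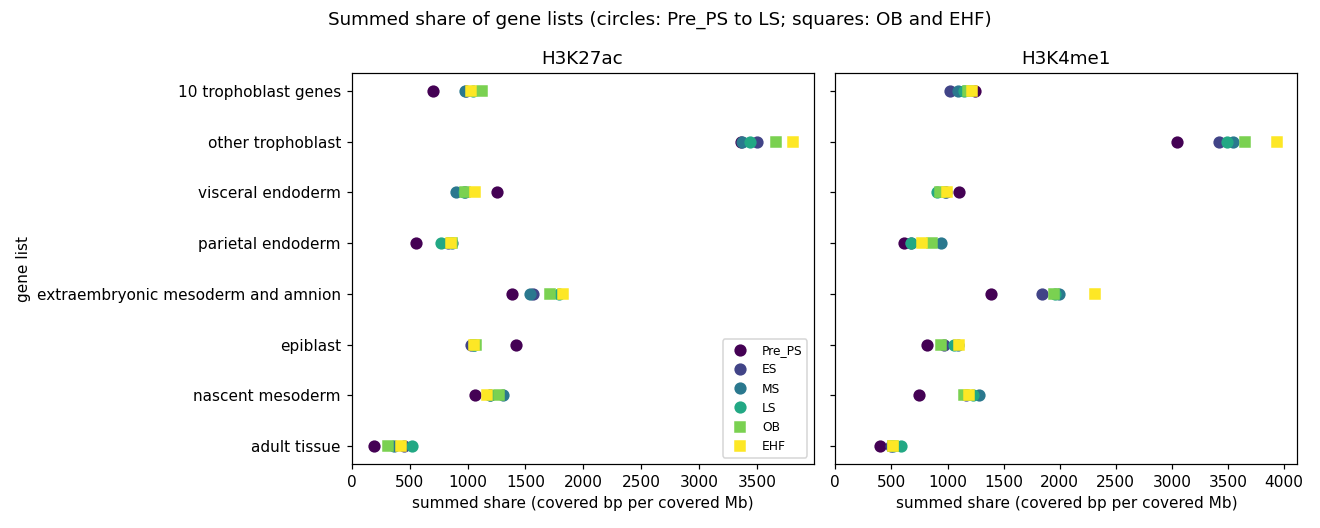
Summed share of the 10 genes and of 7 other gene lists at the 6 stages, in covered bp per covered Mb, for both marks, with 1 library per point. The lists differ in number and length of genes, so that each row is to be read across stages and not against other rows: the 26 other trophoblast genes reach 3805 bp per Mb for H3K27ac at EHF, and the 10 genes 1027.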

How the data were processed

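The processed data were 12 broad peak lists (6 stages, 2 marks, 1 library each). MACS2, Bowtie2, deepTools and Picard and the build mm10 are named for the authors' processing, per the submitters' processing notes, with no versions or settings. Cell numbers and the treatment of reads with several places were not found in those notes. The authors' fold is a ratio over local background, with 1 added to both terms. The deposited lists hold a score, this fold, a −log10 p-value and a −log10 q-value per peak. Of these, the deposited fold served to order the peaks of 1 list and, with the deposited −log10 values, to recover the pileup of the weakest peaks; the deposited score was not used.

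Peaks on chromosomes 1 to 19 and X were used as listed, without joining peaks within a list. Territories, shares, merged regions (overlap of at least 1 bp) and start windows (at least 1 bp) were computed with Python 3.11.15, numpy 2.4.6 and pandas 2.3.3 from the RefSeq tables of GRCm38, and checked on simulated data. Shares divide by the covered Mb of each library, which sets precision, as do the depths given with the data. Samples were grouped by stage and mark from the labels, and with 1 library each no test was possible.

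The genes, lists and settings were chosen with earlier results of these data known. All 10 genes were named. Of the 26 other trophoblast genes, up to 4 per mark with the largest difference among those whose sets of stages did not overlap were named, and those with no peak at any start. For each gene the region with the most covered bases, and those in only 1 set of stages, were described. Alternatives were the stronger 50% of peaks, equal peak numbers, no weakest peaks, a 50 kb limit, the gene body with 5 kb on either side, stricter overlaps, leaving out each stage and undivided covered bp. Peaks tied in deposited −log10 q-value and −log10 p-value were ordered by chromosome name and position.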

Additional observations from a re-analysis of the deposited data

How the results depend on the processing

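No paired analysis was possible because each stage and mark had 1 library and the result comes from no test. With the stronger 50% of peaks the summed H3K27ac difference reversed, from 145 to -57.5 bp per Mb, and that of Elf3 to -29.7. 1 gene then lay above (Tead4, beside 7.46% of all genes with coverage) and 1 below (Wnt7b, beside 1.73%) for H3K27ac. Sox21 alone lay above for H3K4me1 in place of Wnt7b (4.75% of genes), and 0 H3K4me1 regions were limited to OB and EHF. In the Pre_PS H3K4me1 list 67.3% of peaks were tied at the lowest fold, and the 50% cut ran through them. The cut to equal peak numbers did so too. Tied peaks were kept in order of chromosome name and position, so H3K4me1 results of these settings depend in part on that order. With equal peak numbers the H3K27ac difference was 52.5, 0 genes lay above (9.12% of genes) and 3 genes had a marked start. In that setting 1 H3K4me1 region was limited to OB and EHF. Without the weakest peaks 2 genes lay above for H3K4me1 (Plac1 and Plet1, no longer Wnt7b), beside 4.93% of genes. Over gene bodies with 5 kb on either side, 1 gene lay above for H3K27ac (8.04% of genes). For H3K4me1 the difference was then 25.2, 1 gene lay below (2.54%) and 1 region was limited to the later stages. In undivided bp, 1 and 0 genes lay above for H3K27ac and H3K4me1 (4.20 and 3.47% of genes). Without Pre_PS the differences were 68.9 and 108, and 3 genes lay above for H3K27ac (13.8% of genes). Without ES the H3K4me1 difference was 33.5. Leaving out MS put 3 genes above and 1 below for H3K4me1, beside 10.0 and 5.44% of genes. Without OB, 3 genes lay above (18.2%) and 1 below (6.91%) for H3K27ac, and 2 above (23.6%) and 3 below (9.24%) for H3K4me1. Without EHF, 4 lay above (15.8%) and 1 below (8.10%) for H3K27ac, and 2 above for H3K4me1 (12.5%). H3K27ac regions limited to the later stages numbered 1 without ES, 3 without LS, 2 without OB and 3 without EHF. Shares over all regions were not computed for the alternative settings. The cause of the changes between settings was not tested, except that fewer stages or bases enter by construction. The shallow Pre_PS libraries limit every mean over the dissected stages, and 1 library per stage allows no error on any value.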

Other observations

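Where the 10 genes carried H3K27ac, H3K4me1 was usually present on the same bases. Of their H3K27ac bases, 68.7, 88.3, 87.7, 94.7, 95.1 and 85.2% were also under an H3K4me1 peak from Pre_PS to EHF, beside 46.7, 83.1, 83.2, 88.9, 91.9 and 84.4% of all H3K27ac bases. Of the 58 H3K27ac regions, 54 had H3K4me1 at 1 stage or more, and of the 81 H3K4me1 regions 50 had H3K27ac. The shares over all merged regions were not computed, so these counts cannot be called particular to the 10 genes. Ets2 accounted for 3 of the 4 H3K27ac regions that never carried H3K4me1, and Sox21 for 1.

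At the start of Elf3 the marks came apart at Pre_PS, MS and EHF, while both were present at ES, LS and OB. At Pre_PS and MS H3K4me1 covered all 300 bases of the window and H3K27ac none. At EHF H3K27ac covered all 300 and H3K4me1 none, although H3K4me1 still covered 1888 bp inside the gene. Single peaks of single libraries carry these values, and no test of the difference was possible.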
